A study of Homo sapiens with 14 samples.

Results

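This account describes 33 protein-coding genes whose transcripts were low both when CTNNB1 was knocked out and when it was overexpressed. They were measured in MGE-like progenitors, cells that model in culture the medial ganglionic eminence (MGE), the ventral forebrain zone from which cortical interneurons arise. The genes were chosen by their group means: the mean normalized count had to be at least 30 in both control groups, and both the knockout mean and the overexpression mean had to be at most 0.5 of the lower control mean. Of 11008 protein-coding genes with both control means at or above 30, the knockout mean met this limit for 170, the overexpression mean for 442 and both for 40. A further 7 of the 40 were left out by name (WNT8B, CDH20, NTRK2, WNT7B, LHX5, PAX6 and FZD1), which leaves the 33. All 4 group means entered the choice, so the low levels below are a description and carry no test.

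RNA sequencing covered 14 libraries from the established human embryonic stem cell line H9, all collected on day 25 of differentiation. Every group was first given 2 µM SB431542 and 200 nM LDN193189 on days 0 to 6, inhibitors of the TGF-beta and BMP pathways, and then SHH at 250 ng/mL with purmorphamine at 0.3 µM on days 10 to 17, which ventralize the cells. The groups are wild type (WT, n = 3), CTNNB1 knockout (KO, n = 5), an inducible CTNNB1 overexpression line that was left uninduced (n = 3, labelled hOE-Dox, here OE without Dox) and this line induced by doxycycline at 0.1 µg/mL on days 17 to 25 (n = 3, labelled hOEplusDox, here OE with Dox). WT and OE without Dox are the controls. Neither the form of the transgene, its promoter nor the way the knockout was made is given, and whether each line is 1 clone is not given either. No WT library received doxycycline, so drug and transgene cannot be told apart. The labels do not say that replicates are separate differentiations, and p-values then measure only the spread between these libraries, which may be technical.

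CTNNB1 encodes beta-catenin, which joins cadherins to the cytoskeleton and carries the canonical WNT signal to TCF and LEF factors in the nucleus. In the early forebrain, WNT and BMP signals come from the dorsal midline, where the cortical hem and roof plate lie, and SHH comes from ventral sources. R-spondins strengthen the WNT signal by keeping its receptors at the cell surface, and secreted frizzled-related proteins bind WNT ligands outside the cell.

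The libraries held 5233270 to 5639725 reads assigned to genes, and 1 read is worth 0.866 to 0.947 of a normalized count. Where no read was counted, up to 3 reads remain possible, or 2.60 to 2.84 normalized counts, a floor that covers counting error only. CTNNB1 itself stood in the direction of each label: the controls had 3814 ± 573 (WT) and 3345 ± 276 (OE without Dox), the KO libraries 2383 ± 271 and the OE with Dox libraries 27060 ± 3820 (SD). The KO libraries thus kept most of the CTNNB1 transcript, and RNA counts alone do not show loss of the protein. NKX2-1, which defines the MGE, was 553 ± 157 in WT and 494 ± 361 in OE with Dox, against 1872 ± 509 in OE without Dox and 2774 ± 465 in KO. LHX6, a gene of MGE-derived neurons, was 4.31 ± 4.36 in OE with Dox, where its single values were 9.23, 2.79 and 0.922. It was 92.1 ± 16.6 in WT, 230 ± 162 in OE without Dox and 239 ± 83.6 in KO.

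Levels below are normalized counts, and ± is the SD. Of the 33 genes, 28 had all 8 KO and OE with Dox libraries below all 6 control libraries. The same was true of 0.745% of the 11008 eligible genes, and the rule makes such separation likely, so nothing is read from that count. The 5 exceptions were NKX2-2, PRSS23, ELF4, RAX and EBF1, each with at least 1 library inside the range of the other side. The ratio of the higher low group to the lower control ran from 0.130 in PDE1A to 0.488 in CDH23, with a median of 0.426. It was at most 0.25 in 7 genes and above 0.4 in 18, so most of the genes lie near the limit of the rule. In KO the median level was 15.9% of WT, with a range of 0.287% to 48.3%. In OE with Dox the median was 28.6% of OE without Dox, with a range of 6.45% to 47.0%. In these bulk samples, fewer cells that make a transcript and less transcript per cell cannot be told apart.

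**Figure D1:**
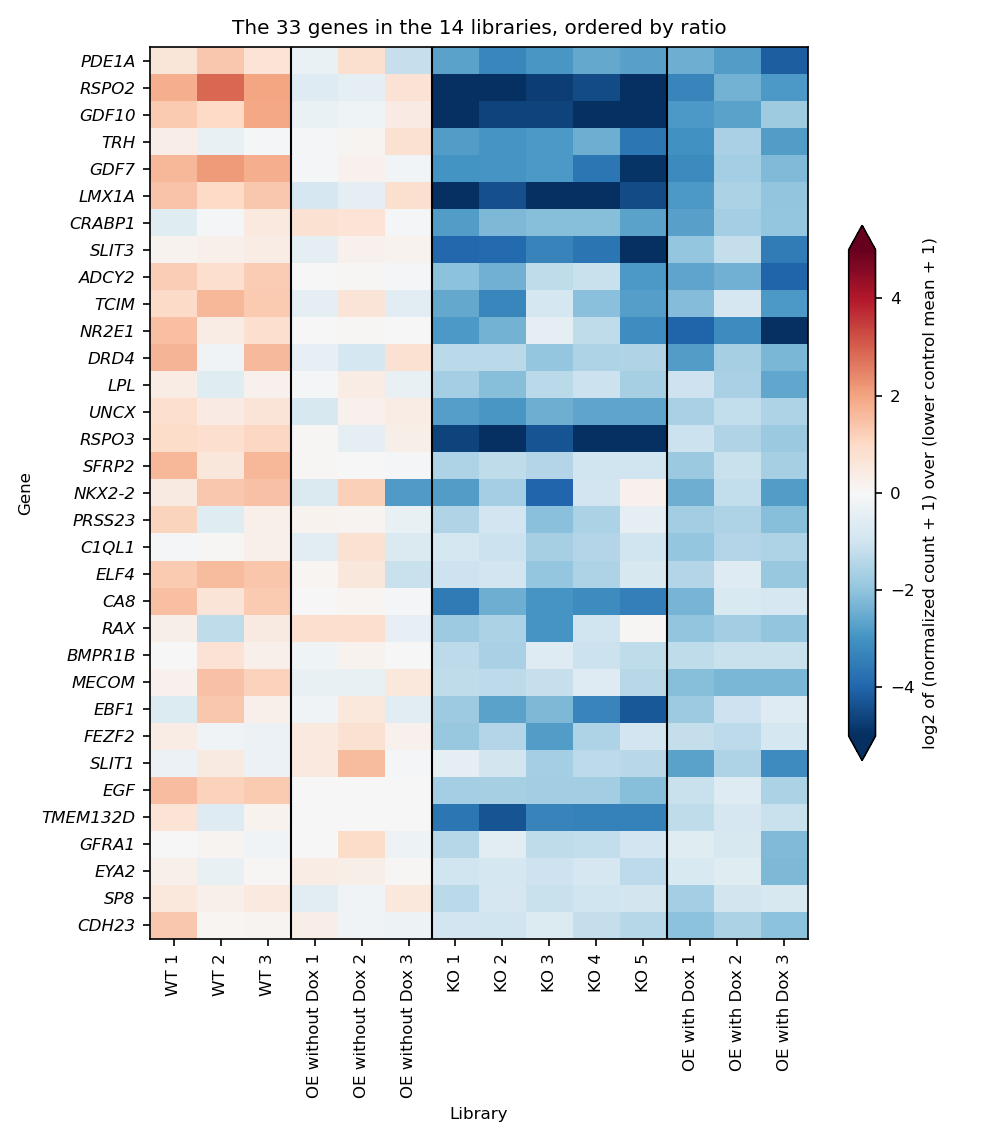
Heat map of the 33 genes (vertical axis, ordered by ratio) in the 14 libraries (horizontal axis, by group), coloured by log2 of the normalized count plus 1 over the lower control mean plus 1. The KO and OE with Dox columns are below the lower control mean except NKX2-2 and RAX in KO library 5, and the WT columns are redder than the OE without Dox columns in most genes, since the WT mean was higher in 26 of 33.

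GDF10, RSPO2, LMX1A, RSPO3 and GDF7, in that order, had the lowest shares of the WT level in KO, and they are described first, with SFRP2 and BMPR1B. RSPO2, an R-spondin (chromosome 8, 107899316 to 108083642, hg38, minus strand), had 354, 740 and 401 in WT and 63.1, 73.1 and 164 in OE without Dox. In KO it had 1.85, 1.89, 2.83, 3.59 and 1.79, which is 13 reads in all, and in OE with Dox 9.23, 18.6 and 12.9. The 4 groups do not overlap at any point, and the order from high to low is WT, OE without Dox, OE with Dox, KO.

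RSPO3, the R-spondin on chromosome 6 (127118671 to 127199481, plus strand), had 180, 170 and 191 in WT and 98.8, 66.6 and 115 in OE without Dox. Its KO values were 2.77, 1.89, 3.78, 1.80 and 0, or 11 reads in all, against 43.4, 32.5 and 24.9 in OE with Dox. RSPO3 was thus near the floor in KO and kept 35.9% of the OE without Dox level under doxycycline. A pseudogene on the opposite strand shares 15.7% of its exon bases, and the strand setting of the counting is not given.

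SFRP2, a secreted frizzled-related protein, was the most abundant of the 33 by both control means and also per kilobase of exon in WT. It had 3454, 1609 and 3476 in WT and 1136, 1107 and 1040 in OE without Dox. The KO libraries had 377, 449, 401, 554 and 543, and the OE with Dox libraries 306, 511 and 347. Both low groups thus sat at 35.5% to 42.5% of the lower control, and they overlap each other.

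LMX1A, a homeobox factor of the roof plate and cortical hem (chromosome 1, 165201867 to 165356715, minus strand), had 162, 122 and 153 in WT and 32.9, 42.6 and 105 in OE without Dox. In KO only 5 reads were counted over the 5 libraries, at 0, 1.89, 0.945, 0 and 1.79. The OE with Dox libraries had 7.39, 19.5 and 14.7, all above the KO libraries and below the controls. GDF7, a BMP-family ligand of the roof plate (chromosome 2, 20667144 to 20679243, plus strand), stood at 348, 484 and 383 in WT and at 102, 128 and 98.8 in OE without Dox. Its KO values of 12.9, 13.2, 14.2, 8.08 and 2.68 overlap those of OE with Dox, 11.1, 32.5 and 23.0.

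GDF10, another secreted member of the TGF-beta superfamily (chromosome 10, 47300197 to 47313577, plus strand), had 118, 94.7 and 182 in WT, and 36.6, 40.7 and 63.5 in OE without Dox. In KO it was 0 in 3 of 5 libraries and 0.944 and 0.945 in the others, which is 2 reads in all. With doxycycline it was 5.54, 6.51 and 12.9, or 27 reads. GDF10 is therefore at or under the floor in every KO library, and above it in every OE with Dox library. BMPR1B, a type I BMP receptor, showed no such gap: it was 79.1 ± 20.4 in KO and 78.9 ± 5.17 in OE with Dox, against 227 ± 61.4 in WT and 176 ± 22.4 in OE without Dox.

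**Figure D2:**
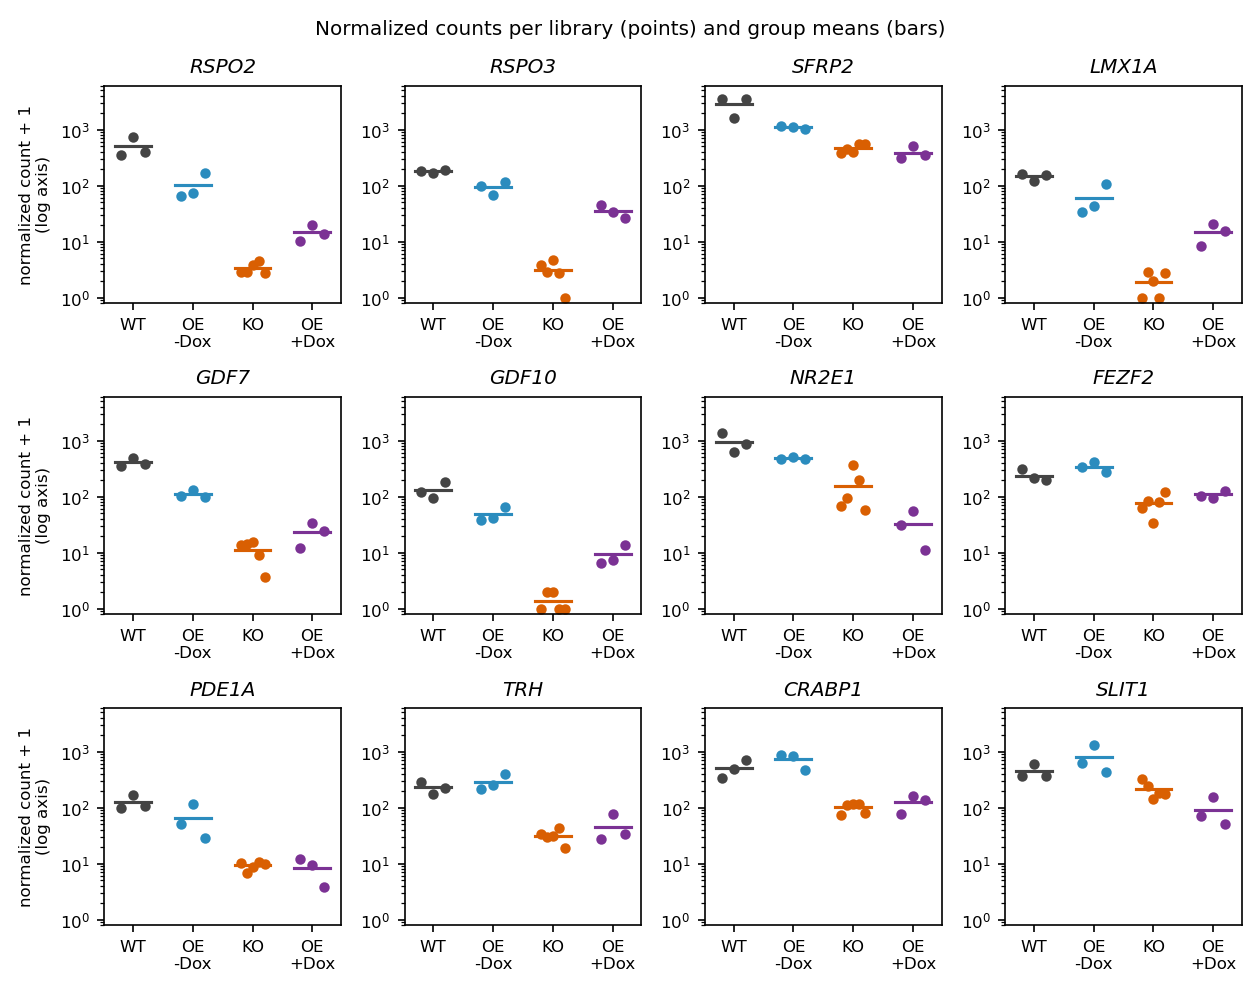
Normalized count plus 1 (vertical log axis) in each library (points) with the group mean (bar) for selected genes in the 4 groups (horizontal axis). RSPO2, RSPO3, GDF10 and LMX1A are lowest in KO, while NR2E1 and SLIT1 have their lowest mean in OE with Dox.

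Other transcription factors differed in which low group was the lower. NR2E1, an orphan nuclear receptor of forebrain progenitors also known as TLX (chromosome 6, 108166022 to 108188805, plus strand), had 1358, 629 and 867 in WT and 476, 502 and 471 in OE without Dox. The KO libraries spread from 55.5 to 358 around a median of 93.5, and the OE with Dox libraries had 29.5, 53.9 and 10.1. NR2E1 kept 6.45% of the OE without Dox level under doxycycline, the lowest share among the 33.

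MECOM, a zinc finger factor (chromosome 3, 169083499 to 169663775, minus strand), was 89.0, 213 and 171 in WT and 57.6, 58.3 and 111 in OE without Dox. It was 30.5, 30.2, 33.1, 47.6 and 28.6 in KO and 16.6, 14.9 and 14.7 in OE with Dox. All OE with Dox libraries lie below all KO libraries. FEZF2, a zinc finger factor of the forebrain, lay the other way by group means, at 76.3 ± 32.3 in KO and 108 ± 16.8 in OE with Dox, but its libraries overlap. It had 237 ± 61.0 in WT and 341 ± 64.5 in OE without Dox.

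UNCX, a homeobox factor, had 99.4, 75.1 and 88.4 in WT and 31.1, 63.9 and 71.6 in OE without Dox. It was between 6.61 and 9.45 in the 5 KO libraries and 17.5, 23.2 and 18.4 in OE with Dox, with no overlap among the low groups. EBF1, a helix-loop-helix factor of differentiating neurons of the lateral eminence, was barely above the minimum of the rule, at 21.8, 92.1 and 42.4 in WT and 31.1, 50.9 and 23.6 in OE without Dox. It was 4.83 ± 3.27 in KO and 16.0 ± 6.47 in OE with Dox, and its highest library with doxycycline, at 22.1, lay above its lowest WT library. SP8, a zinc finger factor of the lateral and caudal eminences, was nearly equal in the low groups, at 112 ± 14.7 in KO and 109 ± 33.5 in OE with Dox, against 310 ± 31.6 and 232 ± 91.0 in the controls.

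ELF4, a factor of the ETS family, had 280 ± 27.3 in WT and 103 ± 53.1 in OE without Dox, against 44.7 ± 13.5 in KO and 42.9 ± 19.8 in OE with Dox. Its lowest control library, at 47.1, lies inside the range of both low groups. EYA2, a transcriptional coactivator and phosphatase, is the member closest to the minimum level, at 30.1 ± 6.43 in WT, 36.0 ± 3.89 in OE without Dox, 14.6 ± 1.84 in KO and 14.2 ± 7.57 in OE with Dox.

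Genes of ventral and hypothalamic territory were also among the 33. TRH, the prohormone of thyrotropin-releasing hormone (chromosome 3, 129974688 to 129977935, plus strand), had 289, 175 and 220 in WT and 210, 251 and 390 in OE without Dox. It was 32.3, 28.3, 30.2, 41.3 and 17.9 in KO and 26.8, 74.4 and 32.3 in OE with Dox. For TRH the controls overlap each other, and so do the low groups.

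NKX2-2, a homeobox factor of ventral neural progenitors, was the least even member in the controls. It had 60.6, 115 and 126 in WT but 26.5, 102 and 5.44 in OE without Dox, and its KO values ran from 1.89 to 51.9. The antisense gene NKX2-2-AS1 and a second antisense gene share 44% of its exon bases, so their reads cannot be told apart from its own without strand. RAX, a homeobox factor of the eye field and hypothalamus, was 64.6 ± 33.9 in WT, 93.6 ± 38.7 in OE without Dox, 28.9 ± 23.0 in KO and 16.7 ± 1.68 in OE with Dox. One WT library of RAX, at 25.9, lay below 2 KO libraries, at 31.4 and 67.1.

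Secreted guidance cues and growth factors showed both patterns. SLIT1 and SLIT3 encode ligands of ROBO receptors. SLIT3 (chromosome 5, 168661740 to 169301139, minus strand) had 127, 136 and 146 in WT and 79.6, 132 and 127 in OE without Dox, against 6.47, 6.61, 10.4, 8.08 and 0.895 in KO and 28.6, 48.3 and 9.22 in OE with Dox. SLIT1 (chromosome 10, 96998038 to 97185959, minus strand) had 367, 610 and 369 in WT and 636, 1332 and 435 in OE without Dox. Its KO libraries had 319, 238, 139, 181 and 171, and its OE with Dox libraries 69.3, 152 and 49.8. SLIT3 was lower in KO and SLIT1 lower with doxycycline by their means, but for each the low groups overlap in 1 library of OE with Dox.

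EGF, the epidermal growth factor gene, had 137, 104 and 119 in WT and 47.6, 46.3 and 46.2 in OE without Dox. Its KO values lay between 9.84 and 14.2, and its OE with Dox values were 21.2, 29.7 and 14.7. GFRA1, a receptor for glial cell line-derived neurotrophic factor, was at 75.4 ± 19.5 in KO and 75.6 ± 37.2 in OE with Dox, against 157 ± 17.2 in WT and 198 ± 90.3 in OE without Dox. C1QL1, a secreted C1q-related protein, stood at 35.9 ± 7.97 and 26.2 ± 4.43 in the low groups and at 88.0 ± 10.6 and 83.3 ± 51.3 in the controls, with WT first.

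Genes of cyclic nucleotide and dopamine signalling included the smallest ratio of all. PDE1A, a calmodulin-dependent phosphodiesterase that breaks down cAMP and cGMP (chromosome 2, 182139968 to 182523359, minus strand), had 98.5, 165 and 104 in WT and 50.3, 113 and 28.1 in OE without Dox. It was 9.24, 5.67, 7.56, 9.88 and 8.95 in KO and 11.1, 8.36 and 2.77 in OE with Dox. The low groups overlap, with means of 13.0% and 11.6% of the lower control.

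ADCY2, an adenylyl cyclase that makes cAMP, was 326 ± 49.0 in WT, 150 ± 5.86 in OE without Dox, 42.6 ± 21.6 in KO and 19.8 ± 10.2 in OE with Dox. DRD4, a dopamine receptor that lowers cAMP, was at 139 ± 76.7 and 57.4 ± 36.4 in the same controls, and at 19.3 ± 3.19 and 12.0 ± 5.20 in the low groups. The KO and OE with Dox libraries of DRD4 overlap.

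The remaining members have various roles. CRABP1, a cytoplasmic retinoic acid binding protein, had 342, 487 and 716 in WT and 883, 830 and 476 in OE without Dox, against 73.9, 109, 117, 117 and 80.5 in KO and 76.6, 159 and 135 in OE with Dox. A gene model on the opposite strand shares 45.9% of its exon bases, and the reads of the pair cannot be told apart without strand. CA8, a carbonic anhydrase-related protein, was 9.62 ± 3.43 in KO and 38.2 ± 18.8 in OE with Dox, against 201 ± 58.1 in WT and 86.4 ± 6.04 in OE without Dox.

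TMEM132D, a membrane protein, was 3.85 ± 1.17 in KO and 26.5 ± 3.84 in OE with Dox, against 63.3 ± 27.6 in WT and 56.4 ± 0.245 in OE without Dox. Its KO level was 6.83% of the lower control and its OE with Dox level 47.0%, among the widest gaps between the low groups. CDH23, an atypical cadherin of hair cell tip links, lay the other way, at 97.7 ± 18.4 in KO and 53.7 ± 10.7 in OE with Dox, against 315 ± 169 and 200 ± 46.2 in the controls. C10orf105 on the opposite strand shares 18.9% of the exon bases of CDH23.

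TCIM, a regulator that acts on WNT signalling, LPL, lipoprotein lipase, and PRSS23, a serine protease, had overlapping low groups. LPL was at 34.4 ± 9.55 in KO and 32.4 ± 16.6 in OE with Dox, against 105 ± 33.1 in WT and single values of 95.1, 130 and 78.9 in OE without Dox. TCIM was at 12.0 ± 9.45 in KO and 15.8 ± 12.3 in OE with Dox, against 136 ± 33.3 in WT and 53.6 ± 27.4 in OE without Dox. PRSS23 was at 266 ± 115 in KO and 178 ± 35.8 in OE with Dox, against 838 ± 488 in WT and 623 ± 126 in OE without Dox, and 12.2% of its exon bases are shared with FZD4 on the opposite strand.

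**Figure D3:**
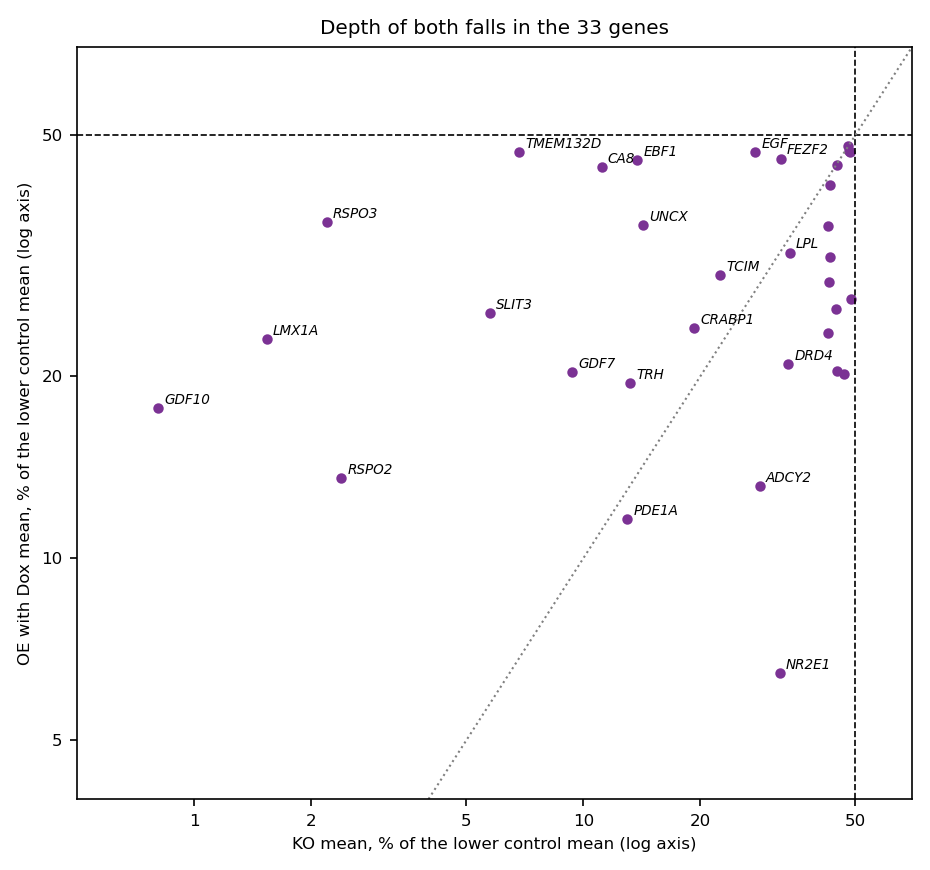
KO mean (horizontal log axis) against OE with Dox mean (vertical log axis), each in percent of the lower control mean, for the 33 genes (points), with names for genes under 40% in KO. GDF10, LMX1A, RSPO3 and RSPO2 lie at the far left, NR2E1 lies lowest, and unnamed genes crowd toward the limit of 50% in KO.

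The difference between the low groups did not enter the choice, although both levels have an upper bound from it. In limma's test of OE with Dox against KO, 11 of the 33 genes were higher with doxycycline, 5 were lower and 17 did not pass at an adjusted p of 0.05. Among all 17102 genes tested, 16.8% were called higher and 15.6% lower. edgeR and DESeq2 on the recovered reads called 15 and 16 of the 33. The members' median log2 fold was -0.09, beside 0.02 over all genes. These 2 groups differ in cell line, CTNNB1 level and doxycycline, which the design does not separate.

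RSPO3 differed by 3.64 on the log2 scale (SE 0.38, adjusted p = 5.6e-07), LMX1A by 3.01 (SE 0.44, adjusted p = 2.9e-05) and GDF10 by 2.76 (SE 0.37, adjusted p = 1.2e-05). TMEM132D differed by 2.54 (SE 0.30, adjusted p = 2.4e-06) and RSPO2 by 2.08 (SE 0.33, adjusted p = 7.6e-05). For all 5 genes every OE with Dox library lay above every KO library. As their KO counts are so few, these folds on log2 of the count plus 1 depend on the added 1, and so does their order: edgeR gave GDF10 4.11 and RSPO3 3.96, and DESeq2 4.46 and 4.04.

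CA8 at 1.79 and UNCX at 1.22 were called in the same direction (adjusted p = 0.00032 and 0.0013), also with no overlap between the libraries. The call of SLIT3 at 1.93 (adjusted p = 0.0095) is lost without the second OE with Dox library (0.0657), and that of EBF1 at 1.69 (0.018) without the second or the third (0.0612 and 0.0924). EGF at 0.68 (0.030) is lost without KO library 5 or OE with Dox library 1 or 2 (0.0658, 0.0708 and 0.205). GDF7 at 1.09 (0.048) is lost in 10 of 14 such fits, with an adjusted p up to 0.226.

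NR2E1 was lower with doxycycline than in KO by -2.19 (SE 0.63, adjusted p = 0.019), though not without the third OE with Dox library (0.106). MECOM was lower by -1.07 (SE 0.28, adjusted p = 0.0058), and this call holds whichever library is left out. SLIT1 at -1.30 (0.024), ADCY2 at -1.08 (0.042) and CDH23 at -0.85 (0.015) were also called lower. SLIT1 loses its call without KO library 1 or 2 or OE with Dox library 1 or 3, CDH23 without OE with Dox library 1 or 3, and ADCY2 in 8 of 14 fits, with adjusted p up to 0.135, 0.0631 and 0.278. Without OE with Dox library 3, 10 of the 33 genes are called, 9 higher and 1 lower. Without OE with Dox library 2, 7 are higher and 5 lower, without OE with Dox library 1, 10 and 3, and without KO library 1, 11 and 3.

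The controls differed as well, and this difference did not enter the choice either, although both levels have a lower bound from it. OE without Dox had the lower mean for 26 of the 33 genes, with a median log2 fold against WT of -0.73, beside -0.03 over all genes. In limma's test 6 of 33 genes were lower than in WT and 0 were higher, where 2.32% of all genes were called lower and 3.43% higher. With an unadjusted p under 0.05 there were 15, edgeR called 9 of the 33 and DESeq2 called 11.

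The 6 genes were RSPO2 at -2.36 (SE 0.37, adjusted p = 0.00092), GDF7 at -1.88 (SE 0.45, 0.021), ELF4 at -1.58 (SE 0.39, 0.024), GDF10 at -1.46 (SE 0.42, 0.048), EGF at -1.33 (SE 0.26, 0.0041) and SFRP2 at -1.29 (SE 0.26, 0.0059). RSPO2, EGF and SFRP2 hold whichever library is left out. ELF4 loses its call in 5 of 14 such fits, GDF7 in 4 and GDF10 in 8, with adjusted p up to 0.102, 0.0824 and 0.226. Without OE without Dox library 1, or without WT library 3, 3 genes are called. SLIT1, RAX, FEZF2, CRABP1, TRH, EYA2 and GFRA1 had the higher mean in OE without Dox, by 0.24 to 0.72 on the log2 scale, and none of them passed.

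**Figure D4:**
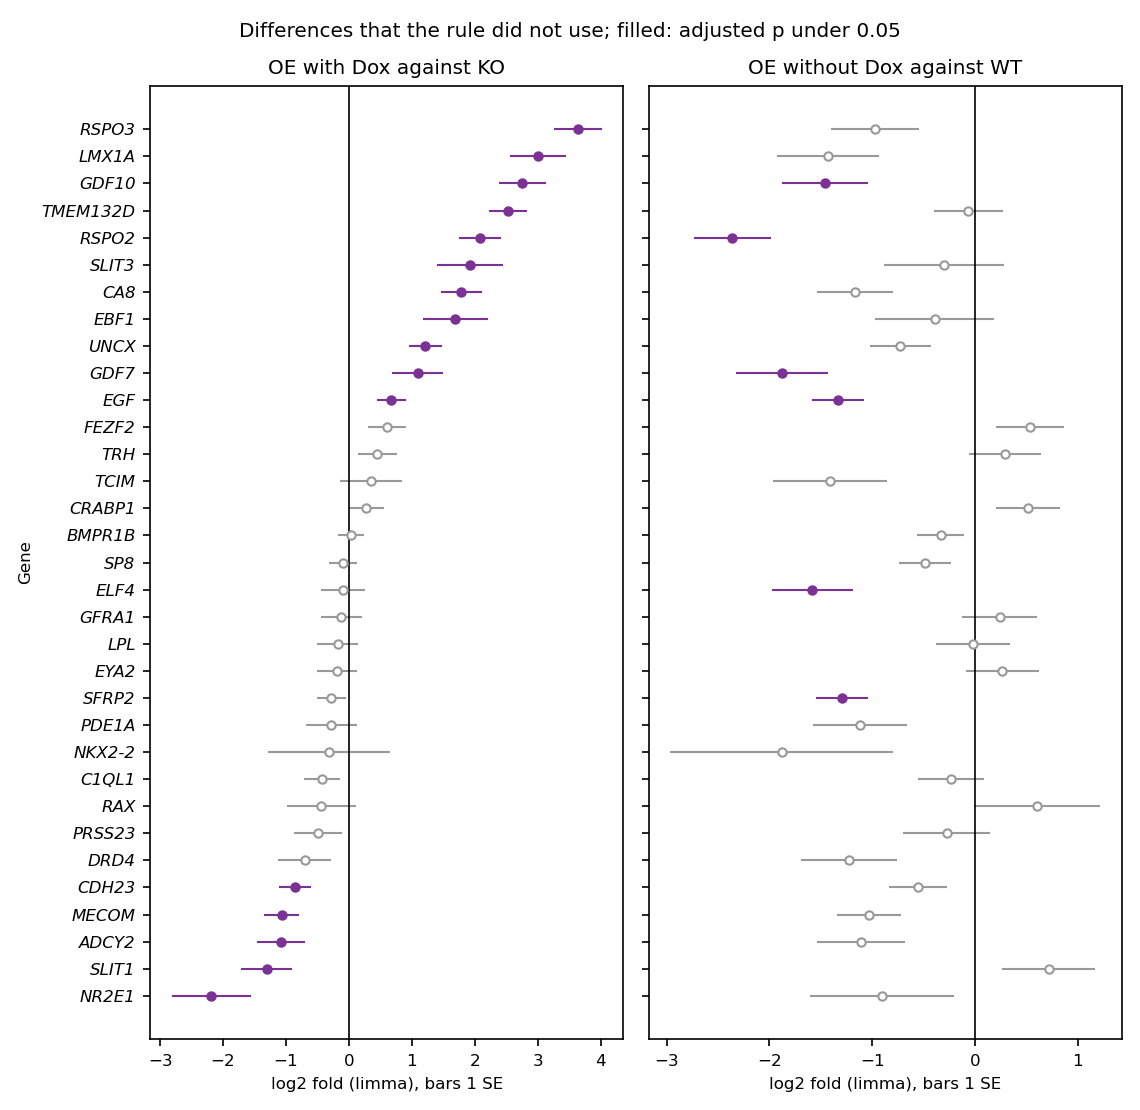
Log2 folds from limma with bars of 1 SE (horizontal axes) for the 33 genes (vertical axis) in OE with Dox against KO and in OE without Dox against WT, filled where the adjusted p is under 0.05. Folds between the low groups spread from -2.19 in NR2E1 to 3.64 in RSPO3, and the 6 filled points between the controls are all negative.

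Other genes of the members' pathways were read from 11 lists that hold at least 1 member. Outside the 33, 223 of their genes were tested, KO against WT alone and OE with Dox against OE without Dox alone. The members, by contrast, had to lie under both controls. In KO against WT, 84 were lower and 31 higher, with a median log2 fold of -0.55, beside -0.02 over all genes, of which 7.15% were lower and 6.64% higher. In OE with Dox against OE without Dox, 70 were lower and 59 higher, with a median of -0.09, beside 0.02 over all genes, of which 12.9% were lower and 12.8% higher. Lower in both were 9 of the 223, where 0.871% of all genes were. Genes past the limits of the rule were set apart as members, and each list was kept for holding a member. LHX5, PAX6 and WNT8B, left out by name, remain among the 223. The choice of lists thus bears on all these counts and medians, and nothing is read from them. Without WT library 3, 20 of the 223 are higher in KO and 71 lower.

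The list of dorsal telencephalon and hem genes, which holds RSPO2, RSPO3, LMX1A, GDF7, FEZF2 and NR2E1, has 19 other tested genes. In KO 14 of them were lower and 0 higher, with a median of -3.01, but with doxycycline 4 were lower and 3 higher, with a median of 0.10. OTX1, a homeobox gene of the forebrain and midbrain, fell from 808 in WT to 6.69 in KO and rose from 184 to 2773 with doxycycline (log2 -6.81 and 3.91, adjusted p = 1.9e-10 and 1.4e-07). RSPO1, another R-spondin, did likewise, going from 291 to 19.9 in KO and from 119 to 262 with doxycycline (log2 -3.79 and 1.26, adjusted p = 4.5e-08 and 0.0052). BARHL2 fell from 109 to 0.940 in KO and rose from 8.21 to 96.1 with doxycycline (adjusted p = 3.9e-08 and 2.3e-05). Of the 4 genes lower with doxycycline, 3 also fell in KO; they are LHX5, PAX6 and WNT8B, which met the numbers of the rule and were left out by name. The call of PAX6 with doxycycline is lost in 5 of 14 fits with 1 library left out, those without OE without Dox library 1, 2 or 3 or OE with Dox library 1 or 3, with an adjusted p up to 0.111. The other was LHX2, which fell from 707 to 123 with doxycycline and was 351 in WT and 528 in KO.

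**Figure D5:**
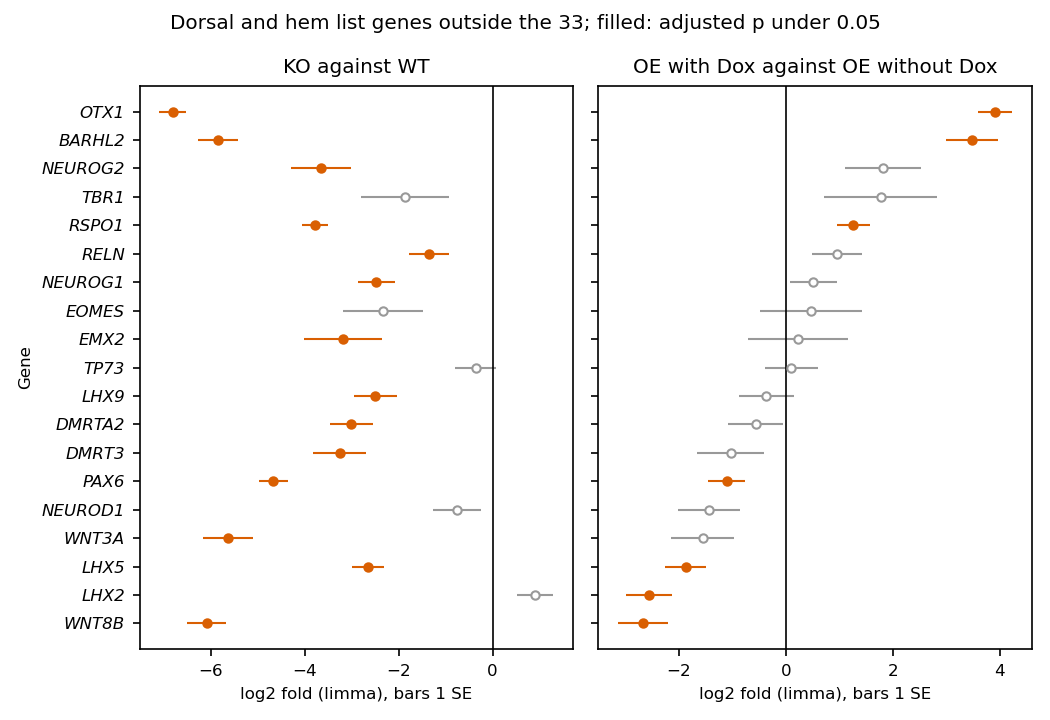
Log2 folds from limma with bars of 1 SE (horizontal axes) for the dorsal and hem list genes outside the 33 (vertical axis) in KO against WT and in OE with Dox against OE without Dox, filled where the adjusted p is under 0.05. The 14 filled points in KO are all negative, whereas those with doxycycline lie on both sides.

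WNT modulators outside SFRP2, RSPO2 and RSPO3 were also mixed. Of 24 tested, 10 were lower and 4 higher in KO, and 8 were lower and 11 higher with doxycycline. Lower in both were SFRP1, DRAXIN and TCF7L2. The KO mean of DRAXIN, 214, was under both controls. Those of SFRP1 and TCF7L2, 1493 and 470, were under WT but above OE without Dox, at 1374 and 432. SFRP1, the closest relative of SFRP2 on the list, went from 2427 to 1493 in KO and from 1374 to 784 with doxycycline (log2 -0.72 and -0.83, adjusted p = 0.015 and 0.0067). Its call in KO is lost without WT library 1 or 3 (0.0604 and 0.0915), and that of DRAXIN with doxycycline without library 1 of OE without Dox or of OE with Dox (0.0583 and 0.0713). FRZB, another secreted WNT antagonist, rose from 172 to 1517 in KO (log2 3.15, adjusted p = 8.0e-09) and fell from 741 to 375 with doxycycline (-0.98, 0.0026). For FRZB, OE without Dox lay between WT and KO. The extracellular antagonists DKK1 and NOTUM rose with doxycycline, DKK1 from 7.31 to 2690 and NOTUM from 2.75 to 2083 (adjusted p = 6.3e-10 and 1.8e-12). Both were lower in KO than in WT, DKK1 at 0.907 against 16.7 and NOTUM at 4.40 against 13.2. These are low counts, and the KO mean of NOTUM was above that of OE without Dox.

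The BMP and TGF-beta list, which holds GDF10, had 30 other tested genes, of which 19 were lower and 2 higher in KO. With doxycycline 14 were higher and 3 lower. ID1, a BMP target, fell from 232 to 11.6 in KO (log2 -4.26, adjusted p = 3.2e-06), and BMP4, a ligand, rose from 11.9 to 459 with doxycycline (5.12, adjusted p = 1.7e-08). The choroid plexus list, which holds LMX1A, had 4 of 13 lower and 0 higher in KO, and 1 lower and 6 higher with doxycycline.

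Of the netrin, slit and repulsive guidance list, 38 genes outside SLIT1 and SLIT3 were tested: 8 rose and 8 fell in KO, and 4 rose and 13 fell with doxycycline. SLIT2, the third slit gene, rose from 742 to 1308 in KO (log2 0.78, adjusted p = 0.0062). With doxycycline it fell from 1347 to 407 (-1.74, adjusted p = 3.8e-06). The KO mean of SLIT2 was above WT but not above OE without Dox. DRAXIN was the gene lower in both. The MGE list apart from NKX2-2 had 5 of 13 higher and 2 lower in KO, and 1 higher and 10 lower with doxycycline, and OLIG2 was the gene lower in both, though its KO call is lost without WT library 2 or 3 (0.0612 and 0.0645). The LGE and CGE list apart from EBF1 and SP8 had 2 of 19 higher and 7 lower in KO, and 7 higher and 4 lower with doxycycline.

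The hypothalamic and eye field list apart from RAX had 4 of 22 higher and 9 lower in KO, and 5 higher and 7 lower with doxycycline, with LHX1 lower in both, though not in KO without WT library 2 or 3 (0.125 and 0.139). The retinoic acid list apart from CRABP1 had 2 of 17 higher and 3 lower in KO, and 6 higher and 3 lower with doxycycline. CRABP2, the other cellular retinoic acid binding protein, rose from 622 to 1185 in KO and fell from 1048 to 295 with doxycycline (adjusted p = 0.0024 and 3.5e-06). Its KO level of 1185 ± 250 was near the 1048 ± 98.8 of OE without Dox. The proneural list apart from EBF1 had 4 of 28 higher and 11 lower in KO, and 2 higher and 15 lower with doxycycline, with HES6 lower in both, though not in KO without WT library 3 (0.0753). The glia list had 0 of 9 higher and 3 lower in KO, and 3 higher and 4 lower with doxycycline, with OLIG2 again lower in both.

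Summed markers of other cell types differed between the groups. By means, the full dorsal, the mesenchymal and the neuronal sum did not move alike in KO and OE with Dox against both controls. The summed level of the 22 dorsal and hem genes outside the 33, of which 1 is at 0 in every library, was 698 to 1107 in KO against 5103 to 5746 in WT. With doxycycline it was 4975 to 5437, above the 2740 to 3505 of OE without Dox, but that order turns on OTX1. Without OTX1, a choice made after its values were seen, the sums were 2191 to 2883 with doxycycline, 2580 to 3280 in OE without Dox, 693 to 1101 in KO and 4219 to 4984 in WT. By means, both low groups were then below both controls, at 909 in KO and 2429 with doxycycline. OE without Dox had 2859 and WT 4676. This sum still holds LHX5, PAX6 and WNT8B, which met the numbers of the rule and were left out by name. Their low levels in both groups thus follow from the rule. PAX6 alone had a mean of 2403 in WT, 905 in OE without Dox and 434 with doxycycline, and was lower still in KO. The sum without these genes was not taken, so nothing is read from the order without OTX1. The KO and OE without Dox libraries overlap in their neuronal sums, and KO overlaps the controls in its mesenchymal ones. The sum of 34 mesenchyme and matrix genes was 20840 to 25430 with doxycycline and 9074 to 12520 in the other groups. Neuronal genes, 34 in number, summed to 16110 to 17660 with doxycycline, 24190 to 26670 in WT and 35830 to 42760 in OE without Dox and KO together. Some other sums did move alike by means, though for each of them the KO libraries overlap those of OE without Dox. Genes of G2/M and mitosis summed to 25920 in WT, 22810 in OE without Dox, 18750 in KO and 18000 with doxycycline. The sums of cilia and ependyma, pluripotency, G1/S and replication, and cadherin genes were also lower in both low groups. The MGE and choroid plexus sums, and that of transmitter genes other than GABAergic ones, were higher in both. With doxycycline, the cilia, pluripotency, cadherin and MGE sums lay outside the range of both controls. The part of these shifts in the levels of the 33 genes was not tested.

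The 33 genes lie on 16 chromosomes, 4 of them on chromosome 8 (RSPO2, TCIM, LPL and CA8). The coordinates above are those of GENCODE 44 on hg38.

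Single libraries also moved many of the 33 together. OE with Dox library 2 was the highest of its group for 23 of the 33, at a median of 1.28 of the group mean. OE without Dox library 3 was the lowest of its group for 22 and WT library 2 for 18. Whether these shared shifts bear on the differences between groups was not tested.

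RefSeq promoter windows of GRCh38.p14, 250 bases before to 50 after the gene start, matched 26 of the 33, and the first window listed for each gene was used. The core TCF and LEF motif CTTTGAT, searched on both strands, lay in 1 of the 26 windows (3.85%), that of MECOM, and in 1.95% of 15251 protein-coding windows. The GLI motif GACCACCCA lay in 0 of 26 and in 0.23% of all, and the E-box CAGCTG in 4 of 26 (EBF1, PRSS23, TMEM132D and NKX2-2, 15.4%) and in 17.6% of all. Median GC content was 66.2% in the 26 windows and 63.0% in all. Motifs were chosen after the levels were known, and a match is a description of letters, not of binding. The stretch of the MECOM promoter that holds the match is shown because it is the sole TCF and LEF match of the set. It is chr3:169663732-169663761 on the minus strand of GRCh38.p14, 5′ to 3′, with the motif in capitals as its reverse complement, whose first base lies 38 bases before the start that the RefSeq window uses. That start lies inside the GENCODE coordinates given for MECOM, so the motif is upstream of the RefSeq start but within the GENCODE gene.
MECOM promoter: aagatctccaaATCAAAGtgataaatcgct

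Genes at the limits of the rule show how narrow the choice is there. Just inside the ratio were EYA2 at 0.483, SP8 at 0.486 and CDH23 at 0.488, and just outside were LGI4 at 0.502, LAMP5 at 0.504 and PRIMA1 at 0.512. Just inside the minimum level of the lower control were EYA2 at 30.1, EBF1 at 35.2 and NKX2-2 at 44.6. Just outside were SAMD11 at 29.3, DMRT3 at 27.6 and TKTL1 at 26.5, whose ratios were within the limit.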

How the data were processed

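The values are a deposited signal: gene read counts that the authors divided by 1 size factor per library, a step inferred from the values, since 100% of them are whole multiples of 1 step per library at a tolerance of 0.01. Build hg38 and the tools DESeq2 (no version), HTSeq 0.9.1, TopHat2 2.1.1 and R 3.4.0 are named in the submitters' processing notes. The annotation release and strand setting are not given in the sources used here. GENCODE 44 named 56948 of 58051 identifiers and left 1103 without a name.

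The members and lists were chosen with earlier results of these data known. Libraries were grouped by their titles. Genes reaching a normalized count of 10 in 3 or more libraries were kept, 17102 in all. After adding 1 and taking log2, they were fitted in limma 3.58.1 (R 4.3.3) with all 14 libraries and 4 groups in 1 model. Variances were moderated with the trend and robust options, on 10 residual degrees of freedom. Tests were two-sided, with Benjamini-Hochberg adjustment over all genes and a threshold of 0.05. All 33 members passed the filter. Members were tested in OE with Dox against KO and in OE without Dox against WT, and list genes outside them in KO against WT and in the doxycycline effect. The code was tested on simulated data.

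Alternatives were pseudocounts of 0.5 and 5, filters, TMM and upper-quartile scaling, no robust option, a replicate block, the 2 groups alone, edgeR 4.0.16 and DESeq2 1.42.0 on the recovered reads, other limits of the rule, medians per group, and leaving out each library. Deviations of same-numbered libraries correlated at 0.222, 0.175 and 0.283 between WT and OE without Dox and at 0.220, 0.248 and 0.402 between OE without and with Dox, over 0.1 in every pair. They did not between KO and OE with Dox (0.165, -0.050 and 0.034) or WT and KO (0.237, -0.289 and 0.127). Nor did they between WT and OE with Dox (0.056, 0.037 and 0.250) or OE without Dox and KO (0.22, 0.049 and 0.102). Any pairing is thus read from these data, and the labels give none.

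Named genes were CTNNB1, members with a lower control mean of at least 100, the 15 smallest ratios, members on a list, those with the smallest adjusted p in the tests, and those at the limits; the list genes named beside them were chosen after their values were seen. Tables were built in pandas 2.3.3 and numpy 2.4.6, and plots in matplotlib 3.10.9, under Python 3.11.15.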

Additional observations from a re-analysis of the deposited data

Results flagged for a closer look

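Groups of 5 libraries were examined for a single value far from the rest, by the gap to its neighbour over the range of the group, in KO for the 33 genes and CTNNB1. Of these 34 groups 2 passed Dixon's critical value of 0.71 for 5 samples, and chance flags about 1 in 20 groups. MECOM in KO library 4 stood at 47.6, above the 28.6 to 33.1 of the other 4, with a gap of 0.766 of the range. EGF in KO library 5 stood at 9.84, below the 13.2 to 14.2 of the other 4, with a gap of 0.783 of the range.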

How the results depend on the processing

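The rule gave 33 genes, 11 with a limit of 0.33 in place of 0.5, all of them among the 33, and 81 with a limit of 0.67, which include all 33. Group medians gave 30 genes, of which 24 are among the 33, and leaving out 1 library gave 29 to 40. In OE with Dox against KO, 16 members were called and 10 to 15 with 1 library left out. In OE without Dox against WT, 6 were called, 12 in a fit of the 2 groups alone, 11 by DESeq2, 10 with a pseudocount of 5, and 3 to 7 with 1 library left out; for these settings the cause was not tested. With the replicate block, 12 members were called in OE with Dox against KO, 7 in OE without Dox against WT, and 111 and 138 list genes in KO against WT and with doxycycline, so no total moved by over 1.5 times. Of the 12, 9 were higher and 3 lower, against 11 and 5 without the block, and 11 are among the 16. The 2 groups alone and no filter gave 9 and 3 as well. All 6 calls between the controls, whose same-numbered libraries correlated at 0.175 to 0.283, passed with the block. Between the low groups, the calls of GDF7, ADCY2, NR2E1, EBF1 and EGF did not pass with it (adjusted p = 0.115, 0.0525, 0.0674, 0.0863 and 0.0981). Same-numbered libraries of the low groups correlated at 0.165, -0.050 and 0.034. List genes called numbered 115 and 129 and, with 1 library left out, 91 to 121 and 116 to 138. Over the 16 and 6 called members, 48 of 399 and 21 of 150 alternative values lost the call, and 0 reversed. Over the 19 named list genes called in KO against WT, 9 of 475 lost the call. Over the 19 called with doxycycline, 8 of 475 did, and 0 reversed in either. Among those lost were LHX1 and OLIG2 in KO with the replicate block (adjusted p = 0.0705 and 0.0675). Same-numbered WT and KO libraries correlated at 0.237, -0.289 and 0.127. Upper-quartile scaling shifted the median of all genes by -0.10 on the log2 scale in OE with Dox against KO, where 14 members were called. Members with a few reads in KO, such as GDF10 and LMX1A, have levels there that depth does not resolve.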
